A study of Homo sapiens with 6 samples.

Results

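The 10 immediate early genes *EGR1*, *EGR2*, *EGR3*, *FOS*, *FOSB*, *JUN*, *JUNB*, *IER2*, *IER3* and *DUSP1* were followed by RNA-seq through the conversion of human leukemic B cells into macrophages, with and without depletion of the chromatin architectural protein CTCF. They were listed by symbol and chosen by their measured difference between 96 h CTCF-depleted and 96 h control cells, because *EGR1* was far higher in depleted cells than in control cells while the rest of the family was mixed. All 10 were among the 30017 genes of the count table, and all 10 passed the filter on low counts that left 14758 genes. Every library came from BLaER1-CTCF-mAID cells, a subclone of a leukemic B cell line whose CTCF is tagged for auxin-inducible degradation. The study describes BLaER1 cells as converted by CEBPA, a transcription factor that is expressed exogenously. Conversion was induced with medium that held estradiol, IL-3 and CSF-1, called the conversion factors here. The 0 h group (2 libraries) was kept without estradiol, IL-3 and CSF-1. The 96 h control group (2 libraries) was converted without auxin (indole-3-acetic acid, IAA), and the 96 h CTCF-depleted group (2 libraries) received IAA together with the conversion factors. Although the label of the 96 h control libraries reads as untreated, all 10 B cell markers examined were lower and all 10 macrophage markers were higher in them than at 0 h, as they also were in the depleted libraries.

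Immediate early genes are the genes that cells switch on first after a stimulus, from transcription machinery that is already in place. Most encode transcription factors. EGR proteins are zinc finger factors that bind GC-rich elements, and FOS and JUN proteins pair through leucine zippers to form AP-1. Others shut the response down again, such as the MAP kinase phosphatase encoded by *DUSP1*. Growth factor signals reach *EGR1* and *FOS* largely through MAP kinases and the serum response factor SRF, which binds a motif called the CArG box. In myeloid cells, EGR and AP-1 factors are known for roles in macrophage differentiation.

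Total counts ranged from 9273470 to 12718780 per library, and the 10 genes took up 0.0366% to 0.0770% of them. Levels are given as CPM, counts scaled to the library size with the TMM factors of edgeR. A gene is called where the edgeR quasi-likelihood test gave an adjusted p below 0.01 and the log2 fold change was beyond 0.6 in either direction. The *CTCF* transcript itself had 2062 and 2051 counts in the depleted libraries and 2048 and 1875 in the control libraries, a log2 fold change of 0.10 (SE 0.05, edgeR adjusted p = 0.119). Since the degron acts on the protein, this transcript does not check the depletion. The study checked it separately, by mapping where CTCF was bound in macrophages converted with auxin and in control macrophages. There was no IAA-treated line without the degron, so that effects of IAA and of CTCF loss cannot be told apart. The study also describes a change of medium during culture with IAA without stating whether the control received one, so that fresh medium cannot be told apart from either. Summed B cell markers were 430 and 438 CPM in control and 442 and 454 CPM in depleted libraries. Summed macrophage markers were 5716 and 5460 CPM against 5291 and 5254 CPM, of which *LYZ* made up 4658 and 4396 against 4168 and 4147. These sums hide single markers that differed between the 96 h groups. Of the 10 B cell markers, 1 was called higher after depletion (*CD22*) and 2 lower (*VPREB1* and *RAG1*). Of the 10 macrophage markers, 1 was called higher (*ITGAM*) and 1 lower (*MRC1*). Among all tested genes, 5.41% were called higher and 7.03% lower. Of markers of other cells, 1 of 6 for T and NK cells, 2 of 6 for erythroid cells and megakaryocytes and 1 of 6 for fibroblasts and epithelia passed the filter on low counts. In bulk RNA, fewer cells expressing a gene and less RNA per cell cannot be told apart.

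*EGR1* lies at chr5:138465479-138469303 (hg38, plus strand) and *EGR2* at chr10:62811996-62819167 (minus strand). The stretch in front of a start site is where factors such as SRF bind, and it is shown for *EGR1* and *EGR2*, which moved in opposite directions during conversion, and for *JUN* and *JUNB*, which moved in opposite directions with depletion. The lines give 150 bases of the RefSeq promoter windows (GRCh38.p14), from 160 to 11 bases before the annotated start. They are written 5′ to 3′ on the strand of the gene. Capitals mark CArG boxes and the cyclic AMP response half-site TGACG, which reads CGTCA on the opposite strand. The intervals are chr5:138465319-138465468, chr10:62816377-62816526 (the third of 3 windows listed for *EGR2*), chr1:58784058-58784207 and chr19:12791326-12791475.
EGR1: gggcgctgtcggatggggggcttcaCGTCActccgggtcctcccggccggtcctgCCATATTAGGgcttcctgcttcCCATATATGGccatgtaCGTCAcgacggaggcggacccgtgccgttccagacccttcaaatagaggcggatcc
EGR2: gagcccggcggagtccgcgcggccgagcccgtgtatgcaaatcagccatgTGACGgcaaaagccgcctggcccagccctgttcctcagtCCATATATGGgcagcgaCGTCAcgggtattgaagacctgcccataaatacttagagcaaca
JUN: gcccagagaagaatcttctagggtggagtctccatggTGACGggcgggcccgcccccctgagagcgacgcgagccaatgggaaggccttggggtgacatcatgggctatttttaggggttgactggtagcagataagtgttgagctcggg
JUNB: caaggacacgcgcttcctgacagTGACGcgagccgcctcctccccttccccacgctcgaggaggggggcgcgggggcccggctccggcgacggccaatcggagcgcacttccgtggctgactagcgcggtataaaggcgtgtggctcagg
*EGR1* held 2 CArG boxes, at 105 to 96 and 83 to 74 bases before the start. *EGR2* held 1, at 71 to 62 bases, in the window shown, and its other windows held no CArG box and no TGACG. The 250 bases of *FOS* held no CArG box, and bases further upstream were not searched. A CArG box was found in 1.16% of all 35116 windows of 250 bases and in 2 of the 10 windows of the 8 members that had one. *EGR3* and *IER3* had no window. TGACG, searched on both strands, was found in 21.2% of all windows and in at least 1 window of all 8 members. The longer pattern TGACNTCA, in which N is any base, was in 6.87% of windows and in those of *JUN* and *DUSP1*. It read TGACATCA in *JUN*, which does not hold TGACG, and TGACGTCA in *DUSP1*, which does. The AP-1 site TGANTCA was in 6.57% of all windows and in none of the member windows. A core of the CTCF motif was in 2.02% of all windows and, among the members, only in the window of *DUSP1*. These are matches of letters in a short window, and binding was not measured.

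*EGR1*, a zinc finger factor induced by growth and differentiation signals, was abundant in B cells. It was counted at 176 and 145 CPM at 0 h, at 13.9 and 13.8 CPM in the 96 h control, and at 112 and 104 CPM after CTCF depletion (1706 and 1936, 157 and 149, and 1215 and 1124 counts). The control libraries were thus far below both other groups, and the depleted libraries were below the 0 h libraries without overlap. *EGR1* fell 11.6-fold during normal conversion (log2 fold change -3.53, SE 0.09, edgeR adjusted p = 5.53e-40). In depleted cells the log2 fold change from 0 h was -0.57 (SE 0.07, adjusted p = 8.57e-11), with a 95% interval of -0.70 to -0.43, which did not pass the fold threshold of 0.6 and passed it without 0 h replicate 2 (-0.71) or without depleted replicate 1 (-0.63). Between depleted and control cells the level differed 7.81-fold (log2 fold change 2.96, SE 0.09). This is the difference for which the gene was listed, and 54 of the tested genes had a larger one. Levels per kilobase of exon were ranked among the 12500 tested genes that could be joined to an exon length. There *EGR1* was at the 95.6th percentile at 0 h, at the 42.1st in control cells and at the 92.5th after depletion.

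*EGR2*, a paralog with known roles in myeloid and lymphoid cells, followed another course. It was nearly silent at 0 h with 1.13 and 0.68 CPM, reached 5.12 and 4.35 CPM in the control and reached 19.1 and 15.9 CPM after depletion. No pair of groups overlapped, and the order was 0 h, control, depleted. The rise from 0 h was 2.43 on the log2 scale in control cells (SE 0.33, edgeR adjusted p = 1.85e-09) and 4.31 in depleted cells (SE 0.25, adjusted p = 1.16e-22). The difference between the 96 h groups was 1.88 (SE 0.18). So *EGR1* fell and *EGR2* rose during conversion, while both were higher in depleted than in control cells.

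*EGR3*, at chr8:22687659-22693480 (minus strand), was the lowest of the 10 genes in control and depleted cells per kilobase of exon. It had 9 and 17 counts at 0 h, 5 and 7 in the control and 21 and 24 after depletion. The groups did not overlap, but with counts this low neither change from 0 h was called (log2 fold change -1.04, SE 0.54, edgeR adjusted p = 0.0793 in the control, and 0.88, SE 0.41, adjusted p = 0.0483 after depletion). The difference between the 96 h groups was 1.92 (SE 0.48).

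Because longer transcripts gather more reads, the family was compared per kilobase of exon. The summed level of the 3 *EGR* genes was 56.6 and 46.7 CPM per kb at 0 h, 5.89 and 5.70 in the control and 41.4 and 37.7 after depletion. *EGR1* made up 99.1% of this sum in both 0 h libraries, 75.0% and 77.1% in control libraries and 86.6% and 87.4% after depletion. *EGR2* made up 0.54% and 0.39%, then 23.5% and 20.6%, then 12.4% and 11.4%. The mix of *EGR* transcripts in depleted cells therefore lay between those of the 2 other groups, while the *EGR2* level was the highest of all.

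**Figure D1:**
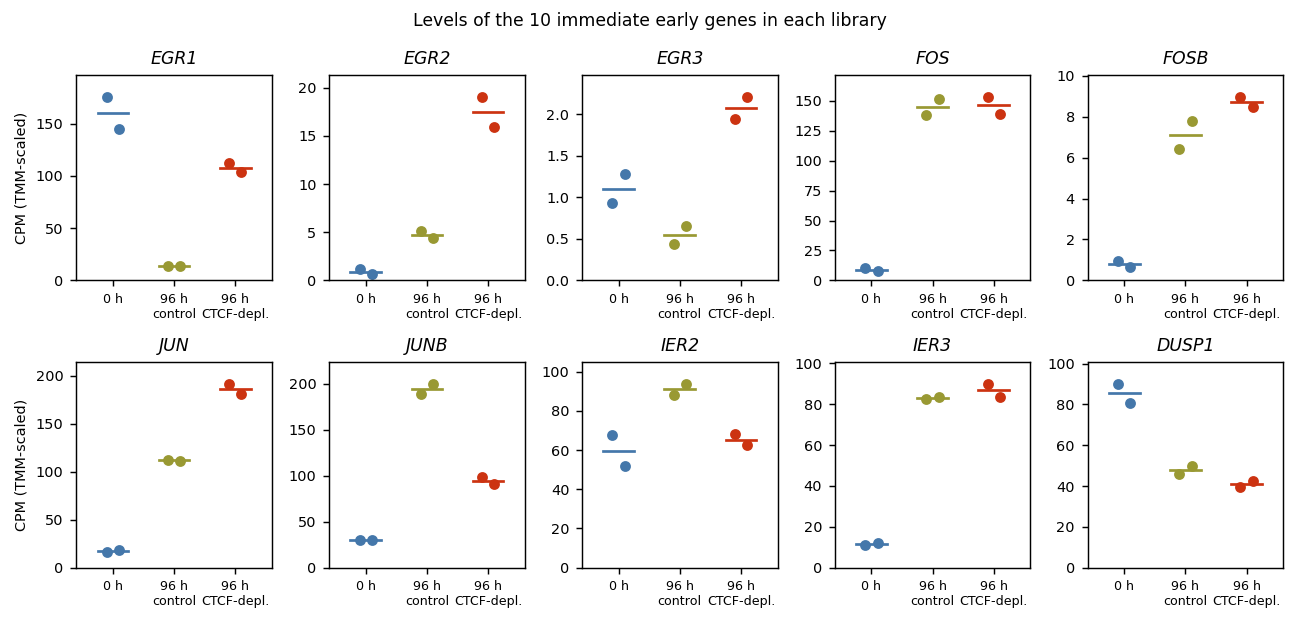
Level of each of the 10 immediate early genes in each library, in CPM scaled with TMM factors. Points are libraries (2 per group), horizontal lines are group means, and each panel has its own axis from 0. *EGR1* is near 14 CPM only in the control group, *JUN* and *JUNB* separate the 96 h groups in opposite directions, and the 96 h groups overlap for *FOS*.

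*JUN* and *JUNB* encode AP-1 subunits that form dimers with each other and with FOS proteins. *JUN* (chr1:58776845-58784048, minus strand) is the more potent activator of the pair, and *JUNB* (chr19:12791486-12793315, plus strand) can counteract it at some sites. *JUN* was counted at 16.2 and 18.5 CPM at 0 h, at 113 and 111 CPM in control cells and at 191 and 181 CPM in depleted cells. *JUNB* was counted at 29.6 and 30.2 CPM, then 188 and 200 CPM, then 98.6 and 90.6 CPM. All groups were separate for both genes, and the order of the 96 h groups was opposite.

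During normal conversion *JUN* and *JUNB* rose almost equally, by 2.68 (SE 0.08, edgeR adjusted p = 1.62e-36) and 2.70 (SE 0.07, adjusted p = 2.31e-39) on the log2 scale. In depleted cells *JUN* rose by 3.41 from 0 h (SE 0.08, adjusted p = 1.47e-42) and *JUNB* by 1.66 (SE 0.07, adjusted p = 5.75e-28). Between the 96 h groups the log2 fold change was 0.74 (SE 0.06) for *JUN* and -1.04 (SE 0.06) for *JUNB*, and 629 of the tested genes had a lower value than *JUNB*. *JUNB* made up 78.4% and 76.3% of the summed *JUN* and *JUNB* level per kilobase of exon at 0 h, 76.8% and 78.0% in the control, and 50.5% and 49.8% after depletion. The share was therefore alike at 0 h and in control cells although the sum differed (20.6 and 21.6 against 134 and 140 CPM per kb). In depleted cells the sum was 107 and 99.5 CPM per kb, and the genes were about level.

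*FOS* (chr14:75278826-75282230, plus strand) encodes the classical partner of JUN, and *FOSB* (chr19:45467995-45475179, plus strand) a close relative. *FOS* had 10.2 and 7.80 CPM at 0 h, 138 and 151 CPM in the control and 154 and 139 CPM after depletion. The 96 h groups overlapped, and both lay far above 0 h. *FOS* rose by 4.03 on the log2 scale in control cells (SE 0.09, edgeR adjusted p = 8.19e-42) and by 4.05 in depleted cells (SE 0.09, adjusted p = 6.42e-42). The difference between the 96 h groups was 0.02, with a 95% interval of -0.11 to 0.15. *FOS* and *EGR1*, which are often induced together, thus took different courses here in the same libraries.

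*FOSB* was scarce, with 9 counts in each 0 h library, 73 and 84 in control libraries and 97 and 92 in depleted libraries. It rose by 3.16 in control cells (SE 0.31, edgeR adjusted p = 1.05e-13) and by 3.46 in depleted cells (SE 0.30, adjusted p = 8.88e-16). The 96 h libraries did not overlap in CPM, and their difference of 0.30 (SE 0.19) had an interval of -0.09 to 0.68. *FOSB* made up 2.61% to 4.96% of the summed *FOS* and *FOSB* level per kilobase over the 6 libraries.

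Other subunits share the AP-1 pool with these 4 genes. Over *FOS*, *FOSB*, *FOSL1*, *FOSL2*, *JUN*, *JUNB* and *JUND*, the summed level was 83.4 and 75.7 CPM per kb at 0 h, 510 and 513 in the control and 490 and 486 after depletion. *JUND*, a subunit expressed in many resting cells, was the largest share at 0 h, with 62.0% and 58.5%. *FOSL2*, a FOS relative with a long transcript, was the largest share at 96 h, with 48.4% and 47.2% in the control and 52.3% and 54.4% after depletion. On average *JUN* took 6.04% of the pool in control and 10.5% in depleted libraries, and *JUNB* took 20.7% against 10.6%. The pool was thus made up differently in the 96 h groups at nearly the same total.

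**Figure D2:**
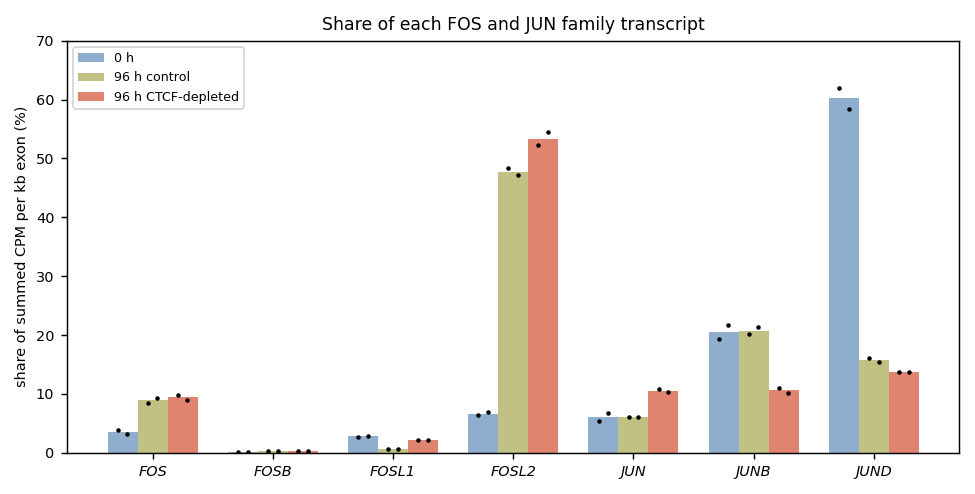
Share of each *FOS* and *JUN* family transcript in the summed level of the 7 genes, in percent of CPM per kilobase of exon. Bars are group means from 0 and dots are the 2 libraries of a group. *JUN* and *JUNB* have unequal shares at 0 h and in the control and nearly equal shares after depletion, and *FOSL2* leads both 96 h groups.

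*IER2* (chr19:13150411-13154911, plus strand) and *IER3* (chr6:30743199-30744548, minus strand) encode small proteins of the immediate early response, and IER3 is known to affect cell survival and ERK signalling. *IER3* was counted at 11.2 and 11.9 CPM at 0 h, at 82.3 and 83.3 CPM in the control and at 89.9 and 83.7 CPM after depletion. It rose by 2.84 in control (SE 0.09, edgeR adjusted p = 2.11e-34) and by 2.90 in depleted cells (SE 0.09, adjusted p = 5.08e-35), and the 96 h groups were close (log2 fold change 0.07, SE 0.07). Its groups lay in the order of the *FOS* groups, with little between those at 96 h. *IER2* had 67.8 and 51.7 CPM at 0 h, 88.3 and 93.8 CPM in the control and 68.1 and 62.5 CPM after depletion. Only the control libraries stood apart from the rest. *IER2* rose by 0.62 in control cells (SE 0.08, edgeR adjusted p = 1.16e-09), just past the threshold, and this call was lost without 0 h replicate 2 (0.38), without control replicate 2 (0.58) and with no filter on low counts (0.58). The change in depleted cells was 0.14 (SE 0.08, adjusted p = 0.117), with an interval of -0.03 to 0.31. The difference between the 96 h groups was -0.48 (SE 0.08).

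*DUSP1* (chr5:172768096-172771195, minus strand) encodes a phosphatase that inactivates MAP kinases and so limits the signals that induce the other genes. It was counted at 90.0 and 80.9 CPM at 0 h, at 46.0 and 49.9 CPM in the control and at 39.7 and 42.4 CPM after depletion. The groups did not overlap and the order was the reverse of that for *JUN*. *DUSP1* fell by 0.83 on the log2 scale in control cells (SE 0.08, edgeR adjusted p = 2.15e-14) and by 1.05 in depleted cells (SE 0.08, adjusted p = 4.74e-18). The 96 h groups differed by -0.22 (SE 0.08).

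Of the 10 genes, 7 were called higher and 2 lower in the 96 h control than at 0 h, where 25.4% and 22.9% of all tested genes were called. In depleted cells, 6 were called higher and 1 lower than at 0 h, where the shares of all genes were 27.2% and 25.2%. The median log2 fold change of the 10 genes was 2.55 in the first comparison, against 0.02 for all tested genes, and 2.28 against 0.02 in the latter. These comparisons share the 0 h libraries, and each also shares 1 group with the contrast behind the choice of the genes. Between depleted and control cells, 4 of the 10 were past the fold threshold upward (*EGR1*, *EGR2*, *EGR3* and *JUN*) and 1 downward (*JUNB*), where 9.15% and 10.8% of all tested genes were. Counted by libraries that did not overlap, 6 were higher, 3 lower and 1 (*FOS*) overlapped, where 30.1% of all genes were higher and 37.8% lower. The median difference was 0.18, against -0.03 for all genes. Since this contrast chose the genes, nothing is read from these counts.

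**Figure D3:**
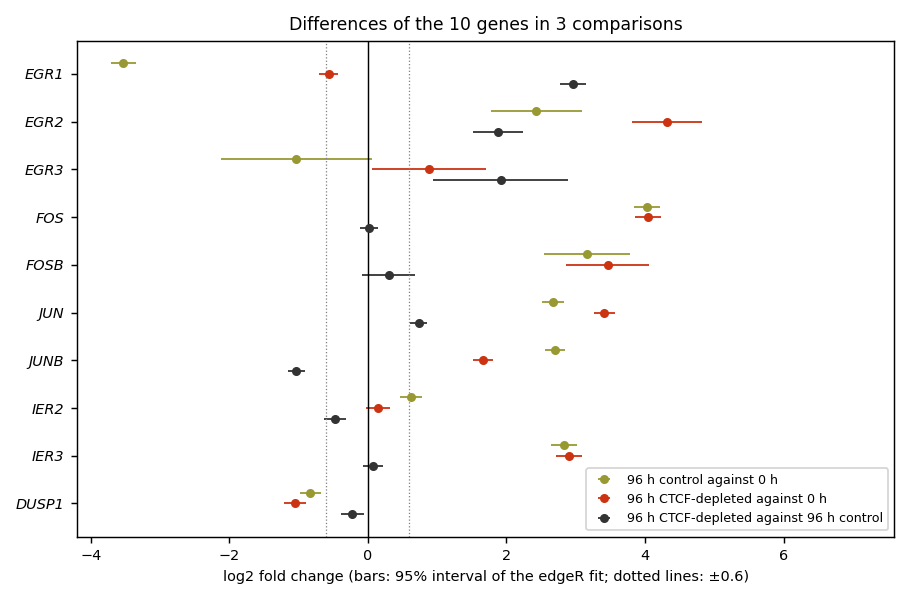
Log2 fold changes of the 10 genes in 3 comparisons, with 95% intervals of the edgeR fit as bars and the fold threshold of 0.6 as dotted lines. For depleted against control cells, which chose the genes, the bars describe the fit and are no test. *EGR1* and *DUSP1* are below 0 in both comparisons with 0 h, and the black points, depleted against control cells, run from -1.04 for *JUNB* to 2.96 for *EGR1*.

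The 10 genes are compact. Their spans run from 1350 to 7204 bases with a median of 4163, against a median of 33424.5 bases for 11682 tested protein-coding genes. Their canonical transcripts have 1 to 4 exons with a median of 2, against 9. Short genes of this kind are not unusual, since 12.5% of the coding genes were no longer than the longest member and 19.5% had at most 4 exons. *FOSB* lies wholly within *ERCC1* and *JUNB* wholly within *HOOK2*, each on the opposite strand. The library kit keeps strand, but the strand setting of the counting is not given in the sources used here, so that reads of these pairs may not have been separated. *HOOK2* had 104 and 93 counts in control and 153 and 225 in depleted libraries, against 984 to 2157 for *JUNB* in those libraries. *ERCC1* had 668 to 793 counts in the same 4 libraries, many more than *FOSB*, so that the values of *FOSB* are uncertain. A long noncoding RNA gene on the same strand overlaps *EGR2* over 4735 bases and was not in the count table. Its reads, if any, may have been counted as *EGR2*. Long noncoding RNA genes on the opposite strand, also not in the count table, overlap *EGR3*, *IER2*, *IER3* and *DUSP1*.

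Other genes of the pathway, which did not enter the choice of the 10, were tested between depleted and control cells. In that comparison 5.41% of all tested genes were called higher and 7.03% lower. The lists were drawn up with earlier results of these data known, so that their p-values are no independent support. Of 10 other AP-1 family genes, 3 were called higher and 0 lower by edgeR (1 was lower at an unadjusted p under 0.05, and DESeq2 called 0 lower and 1 higher). *FOSL1*, which encodes the subunit FRA1, rose from 66 and 60 to 216 and 209 counts (log2 fold change 1.78, SE 0.16, adjusted p = 9.81e-14). *ATF3*, a stress-induced member, rose from 11.5 and 7.69 to 15.8 and 16.3 CPM (0.74, SE 0.16, adjusted p = 1.63e-04), a call that was lost in DESeq2 and without control replicate 2 (adjusted p = 0.0205 and 0.0294). *BATF2* rested on 1 count in each control and 10 in each depleted library. The median of the 10 genes was 0.23.

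The EGR proteins are held in check by NAB1 and NAB2, corepressors that bind them directly, and *NAB2* is itself a known EGR target. *NAB2* had 12.3 and 10.6 CPM at 0 h, 107 and 111 CPM in the control and 52.2 and 51.1 CPM after depletion. It rose during normal conversion (log2 fold change 3.27, SE 0.09, edgeR adjusted p = 9.85e-38) and was lower in depleted than in control cells (-1.08, SE 0.07, adjusted p = 2.09e-18). In these comparisons, which share the control libraries, *NAB2* had the opposite sign to *EGR1*. *NAB1* had a difference of -0.38 (SE 0.08, adjusted p = 1.04e-04), within the fold threshold, and *EGR4* had no counts in any library.

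Upstream of the 10 genes, 1 of 7 factors, namely SRF, its cofactors and CREB1, which binds the cyclic AMP response element, was called between the 96 h groups. *ELK3*, an ETS factor that joins SRF on DNA, rose from 84.3 and 81.1 to 136 and 134 CPM (log2 fold change 0.71, SE 0.07, edgeR adjusted p = 2.86e-12). Of 20 genes of the MAP kinase cascade, from RAS and RAF to ERK, JNK and p38, edgeR called 0 higher and 0 lower (5 and 6 at an unadjusted p under 0.05, 1 and 4 by DESeq2, which also called none). Their log2 fold changes lay between -0.46 and 0.56 with a median of -0.01. Transcript levels do not measure kinase activity. Of 4 receptors for the conversion factors, 0 were called (1 higher and 1 lower at an unadjusted p under 0.05 by edgeR and by DESeq2).

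Among 30 tested genes of a wider list of immediate early genes, 6 were called higher and 2 lower in depleted cells, and 22 were not called. DESeq2 called 5 higher and 2 lower. *PLK2*, a stress-responsive kinase, rose from 34.2 and 31.2 to 132 and 118 CPM (log2 fold change 1.94, SE 0.08, edgeR adjusted p = 1.54e-27). *SPRY2*, a feedback inhibitor of growth factor signalling, rose from 24.6 and 17.6 to 67.9 and 68.5 CPM (1.69, SE 0.09, adjusted p = 4.09e-22). *TNFAIP3*, which encodes the NF-κB inhibitor A20, rose from 9.36 and 10.7 to 30.4 and 22.9 CPM (1.41, SE 0.13, adjusted p = 8.41e-14). These 3 genes, like *EGR1*, were higher after depletion, and *SPRY2* and *TNFAIP3* had also fallen during normal conversion (-1.09, SE 0.10, adjusted p = 6.74e-15, and -1.85, SE 0.12, adjusted p = 2.06e-20). *PLK2* was not called there (0.31, SE 0.09). The remaining genes called higher after depletion, *KLF6*, *MAFF* and *TRIB1*, are named to complete the count. They had been called higher during normal conversion (1.16, 2.14 and 1.56), unlike *EGR1*. The call of *MAFF* after depletion was lost in DESeq2. *KLF10*, a TGF-β induced repressor, dropped from 204 and 195 to 92.3 and 94.0 CPM (-1.10, SE 0.07, adjusted p = 5.19e-21). *ZFP36*, whose product speeds the decay of many short-lived mRNAs, was not among the 4 genes with the largest change and is named because it was the other gene called lower. It dropped from 210 and 212 to 103 and 98.1 CPM (-1.07, SE 0.06, adjusted p = 2.78e-22). The 2 comparisons share the control libraries. The median of the list was 0.14.

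Lists for other kinds of stimulus were read the same way. Of 10 heat shock genes, edgeR called 0 between the 96 h groups (4 higher and 2 lower at an unadjusted p under 0.05, 2 and 2 by DESeq2), and their sum was 2312 and 2243 CPM in control and 2353 and 2348 CPM in depleted libraries. Of 7 targets of the aryl hydrocarbon receptor, which can bind indole compounds, 2 passed the filter and 0 were called by edgeR or DESeq2 (1 was higher at an unadjusted p under 0.05 in each). That gene, *TIPARP*, was named after its values were seen and had 36.9 and 39.1 CPM in control and 57.1 and 53.7 CPM in depleted libraries (log2 fold change 0.55, SE 0.08, edgeR adjusted p = 7.23e-08). The part of such stimuli in the levels of the 10 genes was not tested.

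**Figure D4:**
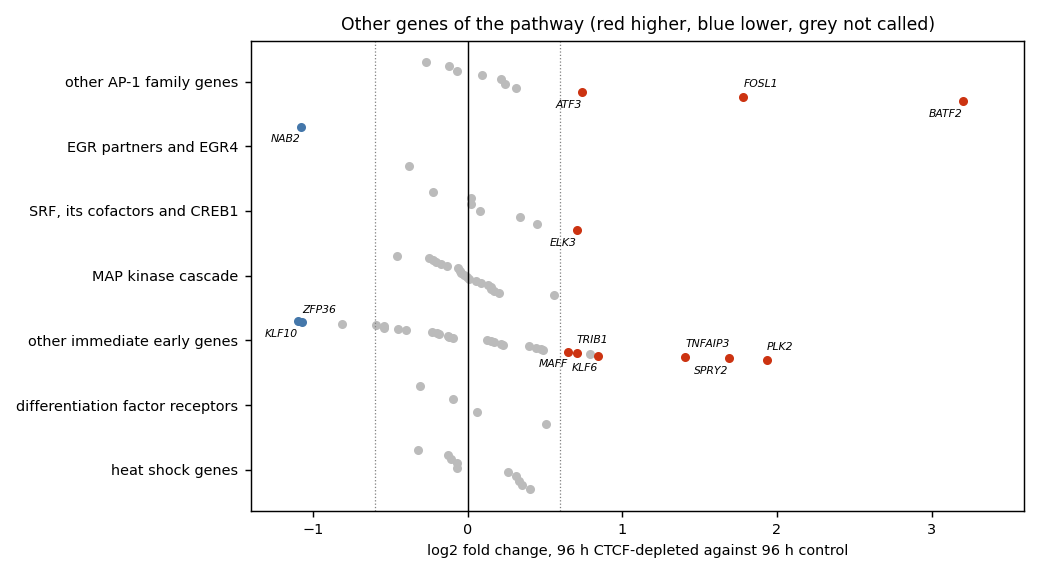
Log2 fold changes between 96 h CTCF-depleted and 96 h control cells for tested genes of 7 lists that hold none of the 10 genes. Each point is 1 gene, spread vertically within its list by rank only, dotted lines mark the fold threshold of 0.6, and genes called by edgeR are named. Called genes lie in 4 lists, and the MAP kinase cascade, the receptors and the heat shock genes have none.

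The same lists were read during normal conversion, from 0 h to the 96 h control. Of the other AP-1 genes, 6 of 10 were called higher than at 0 h and 0 lower in edgeR (25.4% and 22.9% of all genes). *FOSL2* had the largest rise of that list, from 38.8 and 37.1 to 1766 and 1733 CPM (log2 fold change 5.53, SE 0.06, edgeR adjusted p = 1.29e-57). Of the wider immediate early list, 19 of 30 were called higher and 6 lower, with a median of 1.24. The 4 largest changes of that list were all rises. *KLF2*, a factor linked to lymphocyte quiescence, rose from 3 and 7 to 772 and 707 counts (7.23, SE 0.18, adjusted p = 1.14e-40), and *KLF4*, a regulator of monocyte differentiation, from 10 and 12 to 946 and 822 counts (6.37, SE 0.15, adjusted p = 1.65e-41). *NFKBIZ*, an inducible NF-κB cofactor, rose from 3.30 and 4.05 to 194 and 196 CPM (5.70, SE 0.09, adjusted p = 1.83e-49). *IER5L*, a relative of the *IER2* family, rose from 9 and 8 to 250 and 241 counts (4.89, SE 0.23, adjusted p = 8.33e-27). Of 7 factors of the serum response and cyclic AMP response elements, 2 were called higher and 1 lower, with a median of 0.25. Of the 20 MAP kinase genes, 4 were called higher and 2 lower, with a median of 0.26. Of the 10 heat shock genes, 1 was called higher and 6 lower, with a median of -0.96.

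CTCF separates chromatin domains, and the nearest tested gene lying wholly to each side of each member was therefore read in the same libraries. Only the 12500 tested genes joined to gene models were searched. Genes that overlap a member were left out, and no test is given for them. Among these, *HOOK2* over *JUNB* had 104 and 93 counts in control and 153 and 225 in depleted libraries. *ERCC1* over *FOSB* had 706 and 668 against 793 and 695. Of the 20 neighbours read, edgeR called 0 higher and 1 lower between depleted and control cells (4 and 2 at an unadjusted p under 0.05, 3 and 2 by DESeq2, which called 0 and 1). Their median log2 fold change was 0.07. Beside *EGR1*, *ETF1*, 36791 bases away, had 126 ± 4.15 CPM in control and 128 ± 4.70 CPM (SD, n = 2) in depleted cells (log2 fold change 0.02, SE 0.06, adjusted p = 0.782). *REEP2*, 18509 bases away on the other side, had means of 3.51 CPM at 0 h, 0.45 CPM in control and 0.55 CPM in depleted cells. It was called lower in control cells than at 0 h (log2 fold change -2.92, SE 0.45, edgeR adjusted p = 6.55e-08), where *ETF1* was within the fold threshold (-0.50, SE 0.06). Between the 96 h groups *REEP2* was not called (0.29, SE 0.66, adjusted p = 0.773). Beside *EGR2*, *ADO*, 3516 bases away, had means of 37.2 CPM in control and 47.3 CPM in depleted cells (0.35, SE 0.08, adjusted p = 4.92e-04), within the fold threshold. The neighbour called lower was *NEURL1B*, 76555 bases from *DUSP1*, with 75.2 CPM in control and 41.1 CPM in depleted cells (-0.87, SE 0.08, adjusted p = 3.02e-14).

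The course of *EGR1* was compared with that of other genes. Of 3376 genes called lower in control cells than at 0 h, 401 (11.9%) were past the fold threshold upward after depletion, where 9.15% of all tested genes were, and 27 had a larger difference than *EGR1*. The comparisons share the control libraries, and the size of the *EGR1* difference chose the gene. The 5 genes nearest to *EGR1* by Euclidean distance between centred log2 CPM over the 6 libraries were *VPS37D* (distance 0.58), *SLC27A2* (0.70), *KIAA0895* (0.83), *TSPAN13* (0.90) and *OTUD7A* (1.06). *SLC27A2*, a fatty acid transporter and acyl-CoA synthetase, had 122 and 166 counts at 0 h, 13 and 18 in the control and 93 and 86 after depletion. *TSPAN13*, a tetraspanin, had 353 and 482, then 57 and 40, then 204 and 223 counts. The other 3 genes had at most 28 counts in any library and at most 1 in a control library. By Pearson correlation the 5 nearest genes were *SLC25A4*, *ITGA10*, *FJX1*, *VPS37D* and *RNF152*, of which 1 was shared, so that the choice of genes depended on the measure.

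Over the 6 libraries, which share conditions and are no independent points, the log2 levels of the 10 genes went together in different ways. *FOS*, *FOSB*, *IER3* and *JUN* correlated with each other at a Pearson r of up to 0.997 (*FOS* and *IER3*), the lowest of the 6 pairs being 0.97 (*FOS* and *JUN*), and *EGR2* with these 4 at 0.890 to 0.953. *JUNB* correlated with the same 4 at 0.826 to 0.921. *DUSP1* ran opposite to them, at -0.995 to -0.963. *EGR1* correlated positively with *EGR3* (0.745) and *DUSP1* (0.454), and negatively with the other 7, from -0.884 with *IER2* to -0.192 with *EGR2*. *IER2* had its highest value with *JUNB* (0.827). These values describe 3 groups of 2 libraries each.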

How the data were processed

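RNA-seq counts were taken as deposited: the authors aligned reads to hg38 with STAR 2.6.1d and counted them per gene with featureCounts 2.0.6, without normalization. The annotation release of that counting is not given in the sources used here. Gene models, exon lengths and overlaps came from GENCODE 44, and promoter windows from RefSeq (GRCh38.p14). The symbols of 12500 of 14758 tested genes were joined by name.

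Counts were filtered with filterByExpr, scaled with TMM and tested with edgeR 4.0.16 (quasi-likelihood, R 4.3.3), with all 6 libraries and condition as the only term. P-values were adjusted with Benjamini-Hochberg over all tested genes. Genes were called at adjusted p below 0.01 and log2 fold change beyond 0.6, the thresholds of the study. DESeq2 1.42.0, RLE scaling, other filters and thresholds, a replicate block and leaving out each library were alternatives. On simulated counts for the depleted against control comparison, edgeR recovered 200 of 200 changed genes with 0 false calls and DESeq2 190 with 0. These numbers hold for those counts only. Recovery in the measured counts, where edgeR called more genes than DESeq2, was not tested.

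Members and lists were chosen with earlier results of these data known, so that no p-value is given for a member between the 96 h groups. For list genes p-values are given, and the same limit applies to them. Other genes were named as up to 4 called genes of a list with the largest absolute change, the nearest tested neighbours and the 5 genes closest to *EGR1*. Figures were drawn with matplotlib 3.10.9. The replicates were described as biological, with 2 per group; whether they came from separate cultures is not given, so that p-values may measure technical spread. An exact permutation test of 2 against 2 libraries cannot go below 0.333 and was not used. Total counts of 9273470 to 12718780 limit precision for genes with few counts, such as *EGR3* and *FOSB*. Replicate numbers did not pair the libraries (correlations of deviations from group means between -0.03 and 0.01).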

Additional observations from a re-analysis of the deposited data

How the results depend on the processing

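Limits are 2 libraries per group, 1 subclone, 1 time point after induction and no measurement of protein. Among 331 alternative values of the 10 genes, no called result changed direction, 5 lost a call and 4 gained one. The 331 include differences between the 96 h groups, where members were not called and could not be counted in this way. Among results that were not called, the sign did change. *FOS* ran from -0.02 to 0.12 between the 96 h groups, and *IER2* from -0.06 to 0.37 in depleted cells against 0 h.

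With a fold threshold of 1, 6 members instead of 7 were called higher (*IER2* was lost) and 1 instead of 2 lower (*DUSP1* was lost) in control cells than at 0 h, 3 instead of 4 were past the threshold upward between the 96 h groups, 5 list genes instead of 10 were called higher after depletion, and 0 neighbours instead of 1 were called lower. With adjusted p below 0.05 and no fold threshold, 2 members instead of 1 were lower (*EGR1* was gained) and 7 instead of 6 higher (*EGR3* was gained) in depleted cells than at 0 h, 23 list genes were higher and 20 instead of 3 lower after depletion, 53 instead of 35 were higher and 14 instead of 9 lower in control cells than at 0 h, and 3 neighbours were higher and 2 lower. With at least 10 counts in every library, 2 members instead of 4 were past the fold threshold upward after depletion, because fewer members were tested. Leaving out 1 library gave 1 to 2 members lower in depleted cells than at 0 h, where *EGR1* was gained without 0 h replicate 2 or depleted replicate 1, 6 to 7 higher in the control, where *IER2* was lost without 0 h or control replicate 2, and 8 to 10 list genes higher after depletion.

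The libraries share replicate numbers only. A fit with the replicate number as a block gave 785 genes higher and 1033 lower after depletion, against 798 and 1038 without it, and changed no call of a member. DESeq2 called 559 and 721. The cause of these differences was not tested.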
